A study of Mus musculus with 3 samples.

Results

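The 10 genes described here, Prdm16, Mecom, Bcl11a, Hlf, Nfix, Nfic, Myb, Hmga2, Lin28b and Msi2, are known regulators of self-renewal in haematopoietic stem cells (HSCs), the bone marrow cells that maintain themselves while producing all blood lineages. They were chosen by name from 21887 protein-coding genes of the RefSeq table (GRCm38 patch 6, which is mm10). Every peak in a gene or within 20 kb of it on either side was taken, without regard to its score. Merging the overlapping peaks of all lists left 43 regions in these windows, out of 24981 regions in the genome.

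The study mapped open chromatin by ATAC-seq, an assay that tags accessible DNA with a transposase, after treatment with inhibitors of the growth-regulating kinase mTOR. There was 1 library for each of 3 treatments, namely DMSO (the solvent), 200 nM AZD2014 and 1 µM rapamycin. All 3 came from HSCs of adult mice of genotype Mx1-Cre-/-;mTORflox/flox, which carry the floxed mTOR allele without the Cre transgene and so keep mTOR intact. The mice had received poly(I:C), HSCs were isolated by FACS and kept in StemSpan SFEM culture, and 50000 cells entered each 30 min transposition at 37 °C. AZD2014 is an ATP-competitive inhibitor of both mTOR complexes, whereas rapamycin is an allosteric inhibitor of the rapamycin-sensitive complex. The duration of treatment and the number of mice pooled were not given in the sources used here.

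With 1 library per condition no difference could be tested, and the values below describe these libraries. Both inhibitors are set beside the same DMSO library and were used at different doses, so they were not compared with each other. Peaks numbered 17189 with DMSO, 21321 (24.0% more) with AZD2014 and 18233 (6.07% more) with rapamycin, and sequencing depth is unknown. A gene without a peak is one at which the authors' threshold was not passed. Of all genes with a listed start, 48.5%, 51.8% and 49.5% had a peak within 1 kb of it under DMSO, AZD2014 and rapamycin. Among 11 HSC and progenitor markers, a peak lay within 1 kb of the start at 5 with DMSO, 6 with AZD2014 and 4 with rapamycin. Kit, Flt3, Meis1 and Mecom had one in each list, Hoxa9 with DMSO only and Cd34 and Ptprc with AZD2014 only, but Procr, Slamf1, Tek and Ly6a had none in any. Of other cell types, 3 of 5 erythroid and 3 of 4 megakaryocyte markers had one in each list, as did 1 of 4 B cell markers (Ebf1), 0 of 4 T cell markers and 1 of 7 non-blood markers (Col1a1, at a gene end). Myeloid markers gave 0, 0 and 1 of 6 (Mpo), and mast cell and basophil markers 0, 1 (Gata1) and 1 (Cpa3) of 5, in the order DMSO, AZD2014, rapamycin. The part of other cell types in the results below was not tested.

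As background, stem cells hold a self-renewal programme through transcription factors such as PRDM16, EVI1 (from Mecom), HLF and the nuclear factor I proteins, and through RNA-binding proteins such as MSI2. LIN28B blocks the maturation of let-7 microRNAs, which otherwise repress Hmga2, and this axis is known for setting the higher self-renewal of fetal over adult HSCs. In ATAC-seq, peaks at gene starts mark open promoters and peaks elsewhere often mark candidate enhancers.

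The starts of the 10 genes differed in base composition, and the following sequences show the range. They are the 250 bases before the gene start, from the RefSeq promoter table on GRCm38.p6, written 5′ to 3′ on the transcribed strand, which is the minus strand in each case. In the pair of sequences given first, those of Hlf and Msi2, capitals mark the palindromic letters TGACGTCA, the consensus cAMP response element. In the other pair, the most and least CpG-rich when each gene is read at its most upstream listed start, capitals mark CpG dinucleotides. The Lin28b start was chosen after its values were seen, as the contrast to Myb. This listed start, at position 45470201, lies inside the Lin28b gene record, whose outer 5′ end is at 45486314. The bases before that outer end were not read.
Hlf, chr11:90390918-90391167: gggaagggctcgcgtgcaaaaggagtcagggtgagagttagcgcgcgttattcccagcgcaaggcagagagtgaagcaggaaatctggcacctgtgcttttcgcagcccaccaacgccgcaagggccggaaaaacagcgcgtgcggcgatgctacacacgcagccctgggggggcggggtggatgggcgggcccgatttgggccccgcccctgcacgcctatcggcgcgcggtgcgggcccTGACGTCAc
Msi2, chr11:88718278-88718527: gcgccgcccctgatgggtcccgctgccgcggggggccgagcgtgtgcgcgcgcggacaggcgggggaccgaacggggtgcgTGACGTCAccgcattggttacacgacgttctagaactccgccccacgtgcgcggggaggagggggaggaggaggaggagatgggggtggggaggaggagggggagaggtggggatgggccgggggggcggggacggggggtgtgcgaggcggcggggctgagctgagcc
Myb, chr10:21160985-21161234: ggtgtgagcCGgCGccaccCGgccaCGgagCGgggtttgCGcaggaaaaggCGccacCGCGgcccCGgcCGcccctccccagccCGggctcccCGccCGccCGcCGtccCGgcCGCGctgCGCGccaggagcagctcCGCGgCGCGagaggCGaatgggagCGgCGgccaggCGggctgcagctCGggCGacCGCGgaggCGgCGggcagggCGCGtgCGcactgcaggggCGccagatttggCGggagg
Lin28b, chr10:45470202-45470451: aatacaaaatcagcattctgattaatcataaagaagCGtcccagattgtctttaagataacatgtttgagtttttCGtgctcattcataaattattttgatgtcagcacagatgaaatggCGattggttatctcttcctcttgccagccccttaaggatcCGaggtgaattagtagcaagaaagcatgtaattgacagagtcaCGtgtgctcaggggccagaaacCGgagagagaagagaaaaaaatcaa

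The response element lay at bases 9 to 2 before the Hlf start and at bases 169 to 162 before the most upstream Msi2 start. On either strand, these letters occurred in 409 of 21263 listed starts (1.92%). Of the starts that held them, 75.6%, 78.7% and 76.3% had a peak in the DMSO, AZD2014 and rapamycin lists, against 46.4%, 49.8% and 47.4% of the other starts. These letters include a CpG, and the shares were not matched for CpG content. Of the other motifs searched, the GC box (GGGCGG) gave 70.8% against 29.3% under DMSO and the TATA box (TATAAA) 20.4% against 50.5%. A link between the response element and open starts was not tested. All 250 bases of the Hlf, Msi2 and Myb stretches lay inside a peak in each list, and none of the Lin28b stretch did.

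Prdm16 and Mecom, which encode related zinc finger proteins with a PR domain, also shared a run of letters just after their starts. This run was the longest common to any of the 45 pairs of the 10 genes, at 24 bases, the next longest being 12 bases. Each gene was read at its most upstream listed start, over 250 bases before it and 50 bases from it onward. No other gene among 32851 promoter entries held the run. The run reached the last base searched in Mecom, so its full length was not determined. It lay 10 to 33 bases after the Prdm16 start (chr4:154636841-154636864) and 27 to 50 bases after the upstream Mecom start (chr3:30509710-30509733), on the minus strand of GRCm38.p6 in both.
Prdm16 and Mecom, shared run: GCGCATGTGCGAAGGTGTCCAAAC
The run lay between each start and the nearest edge of the start peaks described below.

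A peak within 1 kb of a listed start was present at 5 of the 10 genes in each list, but not at the same 5. Mecom, Hlf, Myb and Msi2 had one in every list, Prdm16 under DMSO and AZD2014, and Bcl11a under rapamycin. Nfix, Nfic, Hmga2 and Lin28b had none in any. When the outer 5′ end of each gene record was counted as a start too, 7, 8 and 6 genes had a peak, with Nfic and Bcl11a then counted in every list and Nfix in the AZD2014 list. Over the 17492 genes with a listed start, the shares with a start peak were 48.5% with DMSO, 51.8% with AZD2014 and 49.5% with rapamycin, so the share among the 10 genes was near that of all genes. At least 1 peak in the gene or within 20 kb was found at 9, 9 and 8 of the 10 genes, against 66.4%, 70.1% and 67.8% of all genes in the order DMSO, AZD2014, rapamycin. The windows of the 10 genes were 75.7 to 598 kb long. A longer window is more likely to hold a peak, and the shares over all genes were not matched for window length.

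Over all listed starts, the presence of a start peak went with CpG content. Among all listed starts, the share with a peak under DMSO was 7.24% for 0 to 4 CpG dinucleotides in the 250 bases before the start, 36.6% for 5 to 9, 67.2% for 10 to 14 and 81.5% for 25 or more, with like values under either inhibitor. Myb had 40, Msi2 29, Hlf 26 and Prdm16 22, and all of them had a start peak in at least the DMSO and AZD2014 lists. Nfic had 19, Bcl11a 16, the upstream Mecom start 14 and the most upstream Nfix start 11. Of these, Mecom had a start peak in each list and Bcl11a under rapamycin only, whereas Nfic and Nfix had none in any. In the class of 15 to 19, which holds Nfic and Bcl11a, 79.2% of all listed starts had a peak under DMSO. Hmga2 and Lin28b, with 8 and 6, lay below the median of 10 and had no start peak. The plot of start peaks by CpG class sets the genes in their classes.

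**Figure D1:**
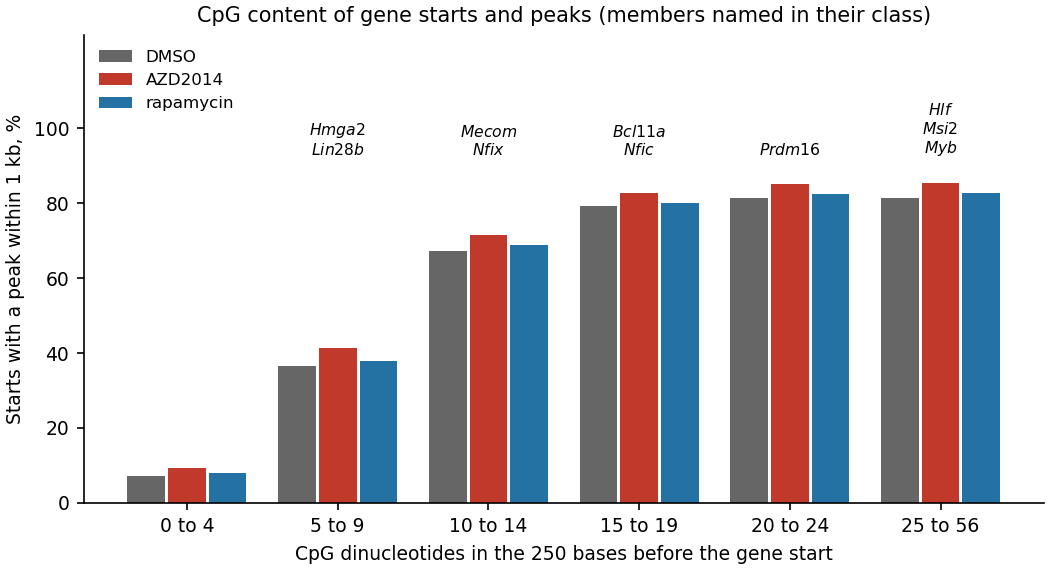
Share of listed gene starts with a peak within 1 kb (y axis, percent) by the number of CpG dinucleotides in the 250 bases before the start (x axis), for the DMSO, AZD2014 and rapamycin lists, 1 library each. Names stand over the class of each gene's most upstream start; under DMSO the share is 36.6% in the class that holds Hmga2 and Lin28b and 81.5% in that of Hlf, Msi2 and Myb.

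In the windows of all 10 genes together there were 24 DMSO peaks, 36 AZD2014 peaks (150% of DMSO) and 22 rapamycin peaks (91.7%). After each list was shortened to the length of the DMSO list by keeping its highest scores, the totals were 24, 25 and 22. Most of the AZD2014 excess was therefore found among the weakest peaks of the longer list. AZD2014 gave more peaks than DMSO at 6 of the 9 genes with a peak in either list (Prdm16, Mecom, Nfix, Nfic, Myb and Msi2) and fewer at 1 (Hmga2), against 33.2% and 8.99% of all genes with a peak in either list. At equal list lengths it gave more at 2 (Nfix and Nfic) and fewer at 4 (Prdm16, Mecom, Hmga2 and Msi2), against 18.0% and 17.1% of all genes. Rapamycin gave more at 2 (Bcl11a and Nfix) and fewer at 3 (Prdm16, Hmga2 and Msi2), against 21.1% and 16.2% of all genes, and the same genes were counted at equal lengths, against 17.6% and 18.8%. The median over all genes was 1 window peak in each list. A window with more peaks has more room to differ in either direction, and these shares were not matched for window length or peak number.

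**Figure D2:**
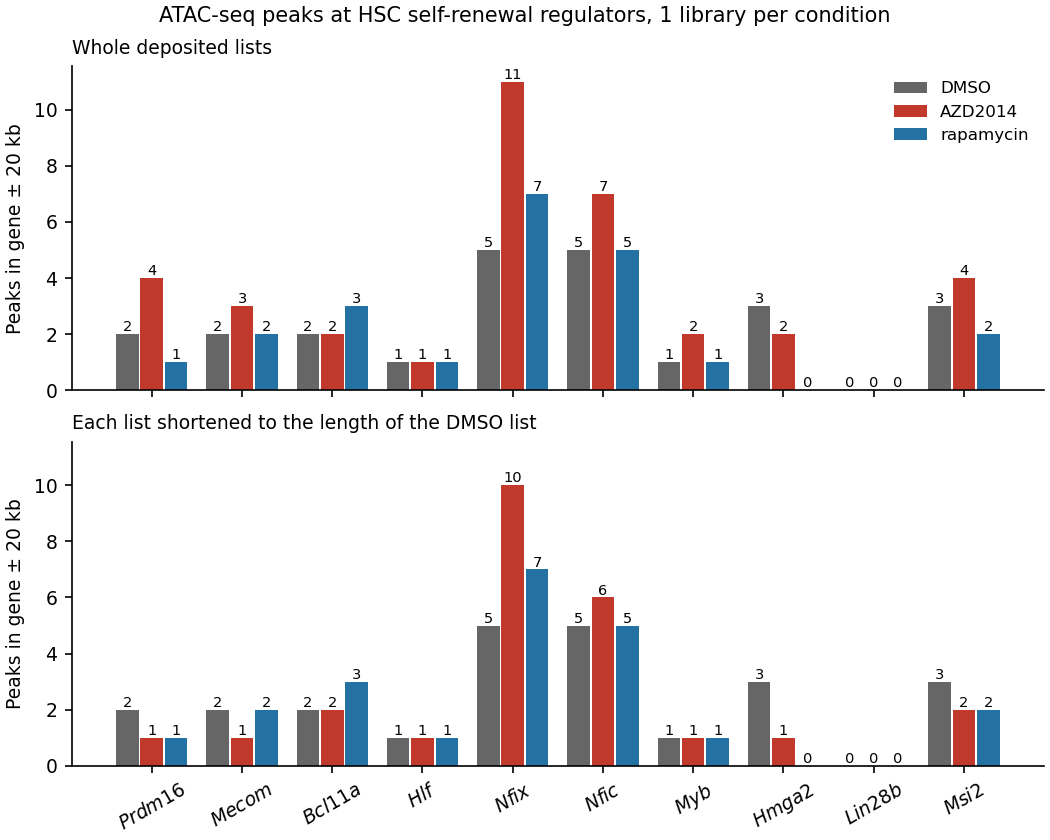
Number of peaks (y axis) in each gene and 20 kb on either side (x axis) in the DMSO, AZD2014 and rapamycin lists, 1 library each, as bars with the count above. In the upper panel the whole lists are used and Nfix holds 5, 11 and 7 peaks; in the lower panel each list has the length of the DMSO list and Nfix holds 5, 10 and 7.

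Prdm16 (chr4:154316122-154637360, minus strand, mm10) encodes a zinc finger transcription factor needed to maintain HSCs. Its window held 2 DMSO peaks, 4 AZD2014 peaks and 1 rapamycin peak, and no region was found in all 3 lists. At the start, the DMSO list had a peak at chr4:154636001-154636506, of 506 bp, with score 58.2, the authors' own value per peak, and the rank of 89.7% of its list counted from the highest score. The AZD2014 list had a peak of 1220 bp there, at chr4:154635491-154636710, with score 149 and rank 46.5%. The rapamycin list had none within 62238 bp of the start. The start peak was thus weak within the DMSO list and mid-ranked within the AZD2014 list.

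Inside Prdm16, a region 94.6 kb from the start held 2 AZD2014 peaks (chr4:154541641-154542097, rank 97.7%, and chr4:154542433-154543032, rank 86.7%) and 1 rapamycin peak (chr4:154541566-154542515, rank 63.3%). The nearest DMSO peak lay 6971 bp away, at chr4:154550003-154550385, and was in no other list, with rank 99.7%. A further AZD2014 peak, of rank 82.4%, lay at the start of the neighbour Arhgef16, 15.962 kb beyond the 3′ end of Prdm16. Away from the start, no DMSO peak in this window overlapped a peak of either inhibitor list.

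Mecom (chr3:29951296-30509759, minus strand) gives rise from its upstream start to a long protein with a PR domain and from its downstream start to the shorter EVI1, a transcription factor of long-term HSCs. The upstream start had a peak in each list, of rank 33.1% and score 188 under DMSO, rank 29.7% and score 254 under AZD2014, and rank 38.1% and score 180.0 under rapamycin. The nearest edge of this peak lay 572, 547 and 391 bp inside the gene, so that the bases before the start were outside it. At the downstream start (position 30013204) no list had a peak, the nearest lying 494960 bp away under DMSO, 78805 bp under AZD2014 and 220834 bp under rapamycin. Of the 2 listed starts, only the upstream one thus had a peak.

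A weak region at -5.49 kb from the upstream Mecom start was listed with DMSO (413 bp, rank 97.4%) and with AZD2014 (468 bp, rank 83.7%) but not with rapamycin. A peak 418 kb into the gene was listed under AZD2014 only (rank 99.5%) and one 276 kb in under rapamycin only (rank 93.1%). At a length of 558 kb Mecom was the longest of the 10 genes, and its window held 0.334, 0.501 and 0.334 peaks per 100 kb.

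Bcl11a (chr11:24076564-24173558, plus strand) encodes a zinc finger repressor that silences fetal globin genes and is needed for HSC function and lymphoid development. Its listed start held a peak only under rapamycin, which was broad (1302 bp, chr11:24080158-24081459) but of low rank (93.1%, score 54.6). A region at -3.07 kb from that start, and inside the longer gene record, had a peak in all 3 lists. There the scores were 75.0, 97.9 and 99.5 and the ranks 73.7%, 62.3% and 59.9% under DMSO, AZD2014 and rapamycin. A region 55.6 kb downstream of the start was listed under DMSO (rank 95.0%) and rapamycin (rank 65.6%), and one 104 kb downstream, past the gene, under AZD2014 only (rank 73.5%). The constant peak lay 477 to 698 bp from the outer 5′ end of the gene record.

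Hlf (chr11:90336535-90390917, minus strand) encodes a PAR-type basic leucine zipper factor that marks HSCs and upholds their quiescence. It had a single peak in each list, over the start and the response element printed above. The peak was 673 bp wide with score 178 and rank 35.4% under DMSO, 926 bp with score 164 and rank 43.3% under AZD2014, and 733 bp with score 155 and rank 43.2% under rapamycin. Hlf was the gene among the 10 with the same peak set in each list, besides Lin28b, which had none.

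Myb (chr10:21124930-21160984, minus strand) encodes the transcription factor c-Myb, required for definitive haematopoiesis and progenitor proliferation. A peak covered its start in each list, with score 148 and rank 42.5% under DMSO, score 244 and rank 30.9% under AZD2014, and score 199 and rank 34.6% under rapamycin. Its width was 657, 1090 and 961 bp. The only other peak in the window lay 29.8 kb into the gene in the AZD2014 list, at rank 92.9%, and was lost at equal list lengths.

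Nfix (chr8:84704712-84801238, minus strand) encodes a nuclear factor I protein needed for the survival and engraftment of haematopoietic stem and progenitor cells. It held the most peaks of the 10 genes in the AZD2014 and rapamycin lists, namely 11 and 7, against 5 in the DMSO list. At equal list lengths the counts were 5, 10 and 7. In the whole lists without the peaks at starts of neighbouring genes, they were 4, 10 and 6. A gain over DMSO of 6 or more peaks under AZD2014 was found at 6 of 15609 genes with a peak in either list (0.0384%), namely Arhgap26, Prkce, Zmiz1, Maml3, Zfp993 and Nfix. At equal lengths, a gain of 5 or more was found at 1 of 15151 genes (0.00660%), which was Nfix itself. Both cutoffs were the gain of Nfix, so Nfix was counted by construction. These shares were not matched for window length or peak number and are not tests. The gene record alone was overlapped by 2 DMSO peaks, 6 AZD2014 peaks and 2 rapamycin peaks. Of these AZD2014 peaks, 1 (chr8:84703048-84704766) reached the 3′ end of the record only by its edge and lay mostly outside it. The overlapping rapamycin peak (chr8:84703201-84704186) ended short of the record and was not counted.

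The Nfix window is gene-dense, so its 12 regions were placed one by one. Both regions present in all lists ranked within the upper 50%. One, at the start of the neighbour Lyl1, which encodes a basic helix-loop-helix factor of HSCs, had ranks of 37.7%, 26.5% and 34.1% under DMSO, AZD2014 and rapamycin. The other lay inside Nfix, 49.2 kb from its most upstream listed start (chr8:84730332-84731324 under AZD2014), with scores of 157, 280 and 188 and ranks of 40.0%, 26.4% and 36.7%. Regions in both inhibitor lists but not in the shared DMSO list numbered 5. One of these was inside Nfix, 57.0 kb from the start, with ranks of 62.8% under AZD2014 and 69.6% under rapamycin. Another, with ranks of 65.4% and 60.8%, lay at the 3′ end of Nfix, beside Lyl1. The remaining ones were at neighbouring genes, with ranks of 67.9% and 65.6% at the ends of Nacc1 and Trmt1, 94.7% and 82.8% in Trmt1, and 79.8% and 82.6% at Dand5.

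Of the other Nfix regions, those 42.3 kb into the gene (ranks 64.7% and 64.4%) and at -31.0 kb (ranks 77.1% and 55.4%) were listed with DMSO and with AZD2014 but not with rapamycin. AZD2014 alone had peaks 67.5 kb into the gene (rank 74.6%) and at -20.4 kb from the most upstream listed start (chr8:84800209-84800734, score 110, rank 57.4%). The latter lay 504 bp from the outer 5′ end of the gene record. DMSO alone had 1 peak (rank 87.5%), overlapping Trmt1, and the nearest peaks of the inhibitor lists were 507 and 556 bp away. All 4 listed Nfix starts were over 20 kb from any peak in every list, the nearest edge being 20127 bp away.

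Nfic (chr10:81396191-81431919, minus strand) encodes another nuclear factor I protein, and unlike Nfix most of its regions were constant, 5 of 7 being in all 3 lists. Its window held 5, 7 and 5 peaks. The strongest peak in it belonged to a neighbour, with ranks of 3.12%, 3.24% and 4.14% at the start of Fzr1, an activator of the anaphase-promoting complex. At the start of the neighbour Dohh the ranks were 22.1%, 29.4% and 19.0%. Of the peaks at Nfic itself, a broad one before the listed start, inside the gene record, was 1248, 1903 and 1859 bp wide with scores of 123, 256 and 193 and ranks of 50.2%, 29.4% and 35.8%. An intragenic region 19.5 kb from the start had scores of 71.3, 196 and 132 and ranks of 76.5%, 37.7% and 48.8%. At both regions the rank was higher in each inhibitor list than in the DMSO list, and ranks from lists of different length do not show a change.

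The region at -5.92 kb from the Nfic start had ranks of 55.8%, 57.3% and 60.9%. Regions listed under AZD2014 only were one 10.5 kb into Nfic (rank 85.6%) and one at the start of the neighbour Smim24 (rank 54.7%).

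**Figure D3:**
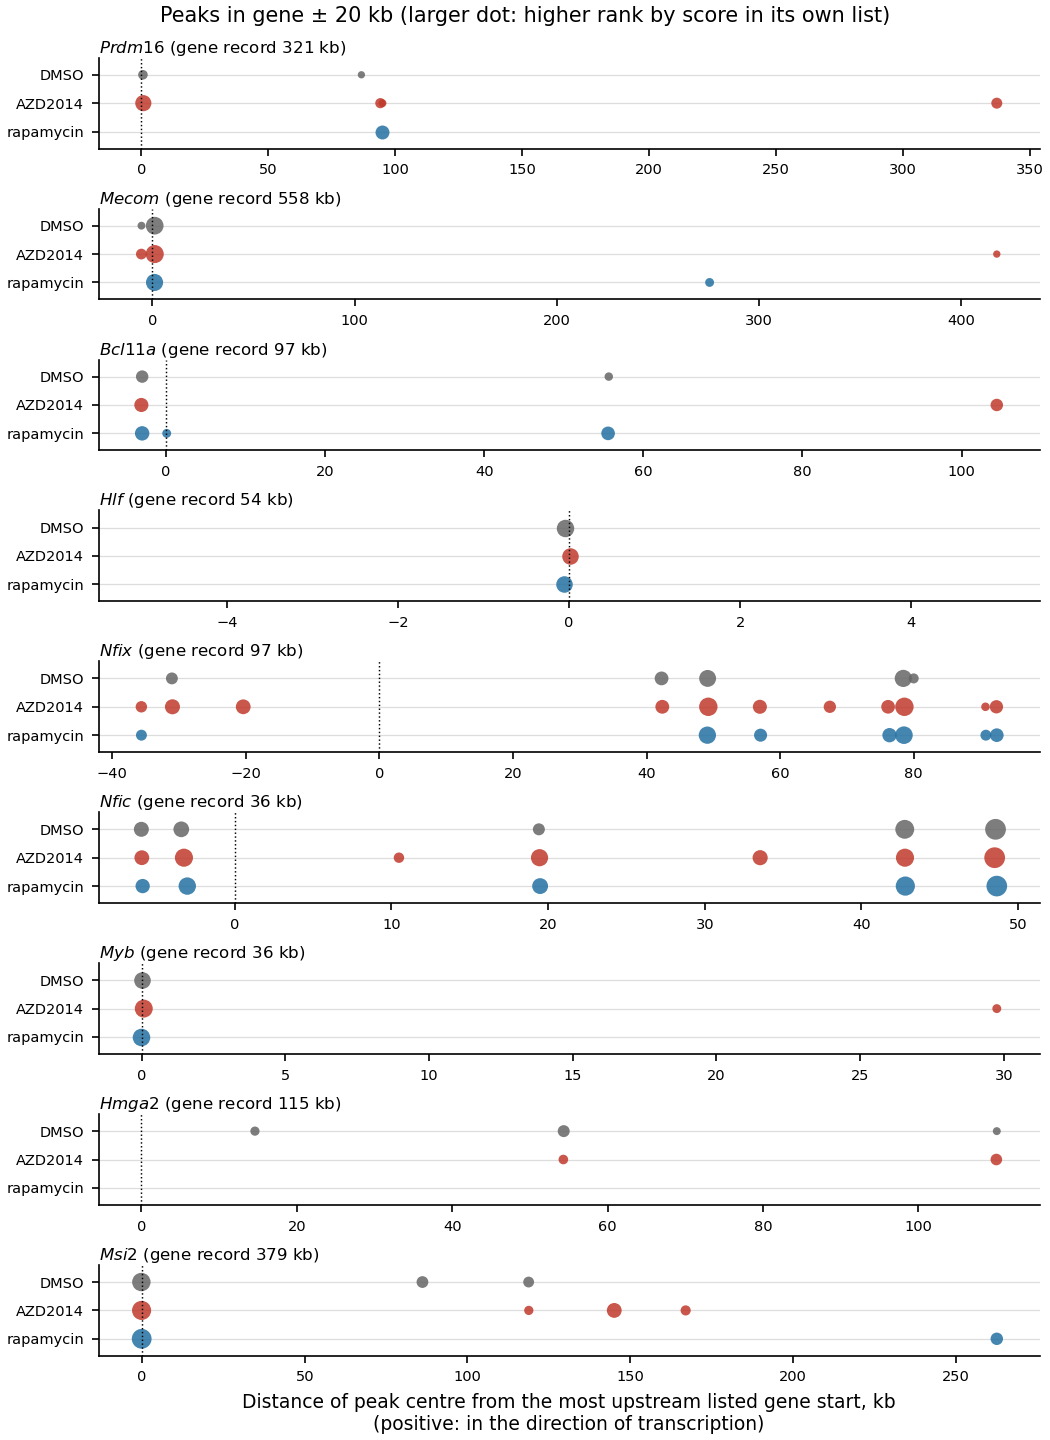
Position of each peak centre relative to the most upstream listed start of its gene (x axis, kb, positive in the direction of transcription, with a scale of its own for each gene), in the DMSO, AZD2014 and rapamycin lists (rows); a larger dot has a higher rank by score within its own list. Start peaks of Mecom, Hlf, Myb and Msi2 stand in each row, the rapamycin row of Hmga2 is empty, and Lin28b, with no peak, is left out.

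Hmga2 (chr10:120361268-120476469, minus strand) encodes a chromatin-architectural protein that supports self-renewal, mainly in fetal HSCs. It had 3 weak peaks in the DMSO list, 2 in the AZD2014 list and none in the rapamycin list. Under DMSO they lay 110 kb (rank 97.1%), 54.4 kb (rank 76.6%) and 14.6 kb (rank 91.6%) from the start. The AZD2014 list had those at 110 kb (rank 79.0%) and 54.3 kb (rank 89.6%). The rapamycin list had no peak within 76575 bp of the start, which is also its nearest peak to the gene. A loss of 3 or more peaks under rapamycin was found at 34 of 15315 genes with a peak in either list (0.222%). This cutoff was the loss of Hmga2 itself, and only genes with at least 3 DMSO peaks could reach it. The median over all genes was 1 DMSO window peak, and the share was not matched for peak number.

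Lin28b (chr10:45376617-45486314, minus strand) encodes the RNA-binding protein that blocks let-7 maturation, and it had no peak in its window in any list. The nearest peak was the same in each, 91.2 kb from the gene, with ranks of 26.6%, 20.8% and 22.9%. The let-7 family that it acts on shares 1 seed, bases 2 to 8, in capitals in these RefSeq mature sequences of GRCm38.p6. They are shown because their loci differed in the distance to a peak.
mmu-let-7i-5p, chr10:122985698-122985719, minus strand: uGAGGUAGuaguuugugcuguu
mmu-let-7g-5p, chr9:106178846-106178867, plus strand: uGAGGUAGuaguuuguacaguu
mmu-let-7e-5p, chr17:17830366-17830387, plus strand: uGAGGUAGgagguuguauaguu
The let-7i hairpin overlapped a peak in each list. The nearest peak to the let-7g hairpin was 7.58, 7.20 and 7.40 kb away, and to that of let-7e 7.35, 2.88 and 2.74 kb, under DMSO, AZD2014 and rapamycin. The let-7b hairpin had its nearest peak 27.7 kb away under DMSO and rapamycin and 1.93 kb away under AZD2014. For the adjacent let-7c-2 these distances were 28.4 and 2.64 kb. In the order DMSO, AZD2014, rapamycin, the distance was 43.3, 30.9 and 2.87 kb for let-7c-1 and 329, 56.3 and 61.7 kb for let-7a-2. It was 7.16 to 9.42 kb for let-7d, let-7f-1 and let-7a-1 in every list, and 38.6 to 38.9 kb for let-7f-2.

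Msi2 (chr11:88339382-88718306, minus strand) encodes an RNA-binding regulator of translation that maintains HSCs. It had the highest-ranked start peak of the 10 genes in each list, with score 223 and rank 26.4% under DMSO, score 345 and rank 19.7% under AZD2014, and score 369 and rank 13.1% under rapamycin. Its other peaks were far inside the gene and seldom shared. A region 119 kb from the start was listed under DMSO (rank 83.2%) and AZD2014 (rank 91.4%). DMSO alone had one at 86.2 kb (rank 77.7%), AZD2014 alone had those at 145 kb (rank 57.0%) and 167 kb (rank 87.0%), and rapamycin alone had one at 263 kb (rank 73.7%).

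**Figure D4:**
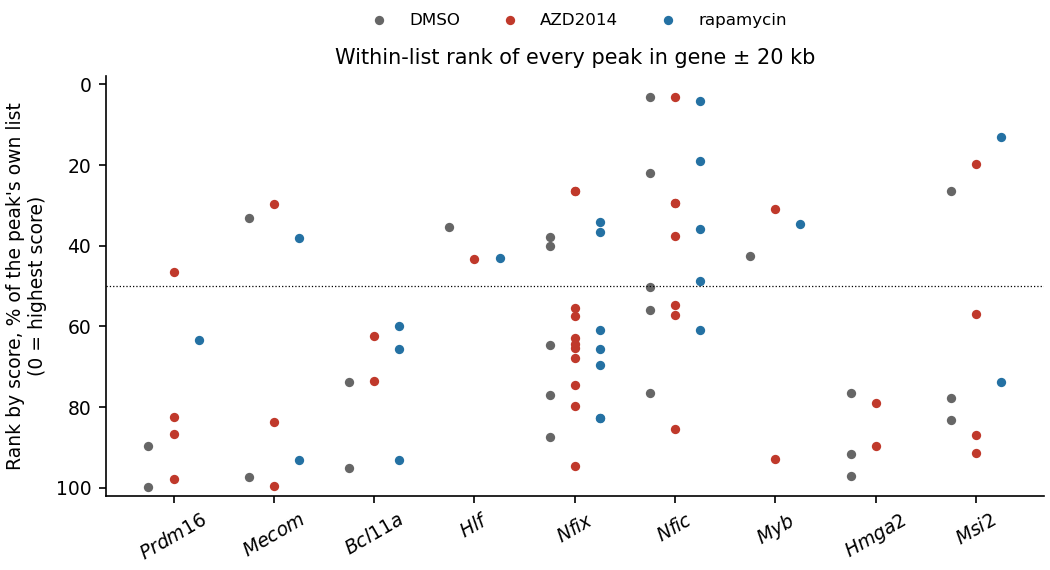
Rank of every peak at the genes with a peak, as a percentage of the peak's own list counted from the highest score (y axis, 0 at the top), by gene (x axis) in the DMSO, AZD2014 and rapamycin lists, 1 library each; the dotted line marks 50%. Of the DMSO peaks 16 of 24 lie below the line, of the AZD2014 peaks 25 of 36 and of the rapamycin peaks 12 of 22.

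Peak density differed widely among the 10 genes. Together their windows held 1.09, 1.63 and 0.999 peaks per 100 kb under DMSO, AZD2014 and rapamycin, against 1.50, 1.77 and 1.55 for the windows of all genes. Under DMSO the values were lowest at Lin28b, with none, and at the long genes Mecom, Prdm16 and Msi2, with 0.334, 0.554 and 0.716 peaks per 100 kb. Hlf with 1.06, Myb with 1.31 and Bcl11a with 1.46 also lay below the value for all genes. Nfic with 6.60, Nfix with 3.66 and Hmga2 with 1.93 lay above it. The median rank of the peaks at the 10 genes was 75.1%, 63.6% and 60.3%. Median width was 608, 613 and 950 bp, where the whole lists had 610, 700 and 710 bp.

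Across lists, 12 of the 43 regions (27.9%) were found in all 3, against 54.7% of all regions in the genome. Of the 32 regions away from gene starts, 5 (15.6%) were in all 3, against 38.9%. Regions absent under DMSO and listed under AZD2014 numbered 16 (37.2%), against 24.6% of all regions, and 14 of 32 (43.8%) away from starts, against 32.9%. Regions listed under DMSO and absent under AZD2014 numbered 5 (11.6%), against 7.60%, all of them away from starts (15.6%, against 10.5%). At equal list lengths the regions added and absent under AZD2014 numbered 9 and 8. For rapamycin, 9 regions (20.9%) were absent under DMSO, against 16.0%, of which 8 (25%) were away from starts, against 21.4%. Regions listed under DMSO and absent under rapamycin numbered 11 (25.6%), against 11.4%, and 10 (31.2%) were away from starts, against 15.3%. The regions at these genes were thus less often shared by all lists than regions in general, and the difference was not tested.

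Peaks without a partner were mostly of low rank. In the 20% of the DMSO list with the lowest scores, 53.2% of all peaks had no overlapping rapamycin peak, and at the 10 genes this held for 7 of 8. In the next 20% it was 26.7% of all peaks and 4 of 6 at the genes. For AZD2014, the lowest 20% of DMSO peaks lacked a partner in 38.8% of cases overall and in 4 of 8 at the genes. Of the AZD2014 peaks in the middle 20% of that list, 17.3% lacked a DMSO partner overall and 3 of 7 did at the genes. In the next 20% it was 51.4% overall and 6 of 9 at the genes, and in the lowest 20% it was 75.9% overall and 8 of 11 at the genes, near the share of all peaks. Every peak at the 10 genes in the upper 40% of its list had a partner in each of the other lists, as did nearly all peaks, of which at most 0.727% in any such step lacked one, and the counts are too few for more than a description.

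**Figure D5:**
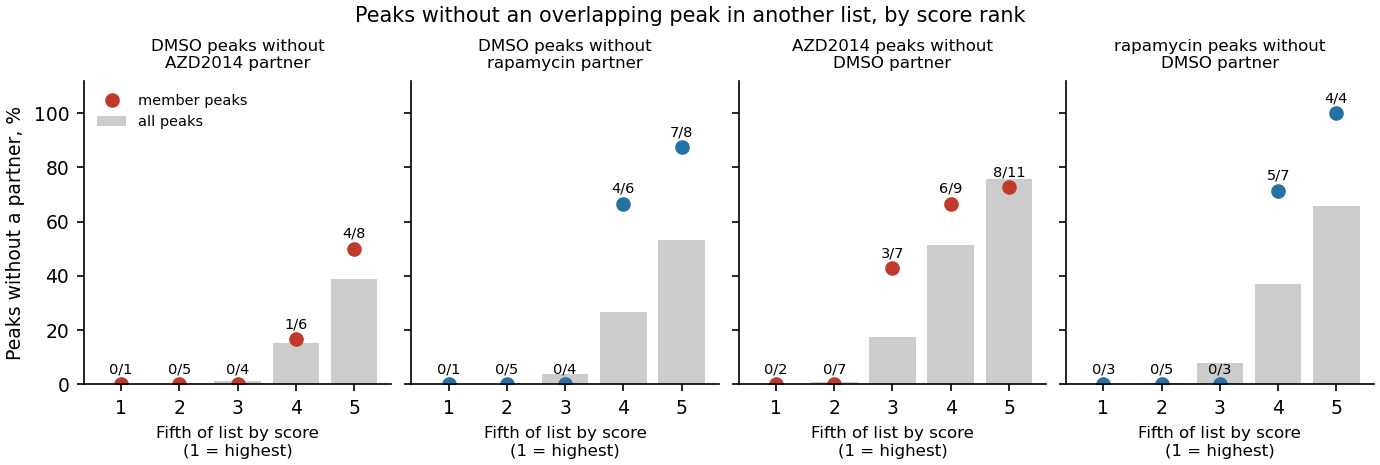
Percentage of peaks without an overlapping peak in the other list (y axis) by 20% step of the list from highest to lowest score (x axis), for DMSO against AZD2014, DMSO against rapamycin, AZD2014 against DMSO and rapamycin against DMSO. Grey bars show all peaks and dots the peaks at the 10 genes with their counts; in the lowest 20% of the DMSO list 53.2% of all peaks and 7 of 8 peaks at the genes had no rapamycin partner.

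Related genes were read in the same way. Of 15 paralogs of the 10 genes, 8, 10 and 9 had a start peak in the DMSO, AZD2014 and rapamycin lists, taking a gene end where no start was listed. At the 10 paralogs with a listed start the counts were 6, 7 and 7, against 48.5%, 51.8% and 49.5% of all genes with a listed start. No share over all genes was taken at gene ends. The paralogs that differed between lists were Prdm1, with a peak under both inhibitors, and Nfib, under AZD2014 only. Of 11 genes of the let-7 and LIN28 axis, 7, 8 and 7 had a start peak, with Igf2bp2, an mRNA-binding protein, differing by a peak under AZD2014 only. Of the 8 in this axis with a listed start, 5, 6 and 5 had one. Tut4 and Tut7 (terminal uridylyltransferases), Dicer1 and Dis3l2, all of which act on let-7 precursors, had one in every list.

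Of 30 other HSC regulators, 24, 24 and 23 had a start or gene end peak in the DMSO, AZD2014 and rapamycin lists. At the 21 with a listed start the counts were 19, 17 and 17, against 48.5%, 51.8% and 49.5% of all genes with a listed start. Hoxa9 and Zeb2 had a start peak under DMSO only, and Gata2 under DMSO and AZD2014. Gfi1b had one under DMSO and rapamycin, and Ezh1 under both inhibitors. Among those read at gene ends, Lmo2 had a peak under DMSO and AZD2014, Spi1 under both inhibitors, Zbtb16 under AZD2014 and Sox17 under rapamycin. Lyl1, whose start peak lies in the Nfix window, had 2, 6 and 5 window peaks, which overlap those counted for Nfix.

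The 20 kb limit fell in gaps rather than among dense peaks. The peaks farthest out but inside it lay 17.1, 16.9 and 17.0 kb from Nfic at Fzr1 and 16.6 kb from Nfix at Nacc1 and Trmt1 in both inhibitor lists. The nearest peaks outside it lay 25.2 kb from Nfic under rapamycin (rank 95.6%) and 26.8 kb from Hlf in each list, with ranks of 57.0%, 39.1% and 33.1%, and 26.9 to 27.0 kb from Bcl11a.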

How the data were processed

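ATAC-seq peaks of 3 libraries, 1 per condition, were used. Each library has a deposited peak list of its own, called without pooling, and the score in each line is the authors' own value per peak. Peak names carry the word MACS, per the file contents, and CASAVA and mm10 are named in the submitters' processing notes. The aligner, caller settings, duplicate removal and any read shift for the transposase were not given in the sources used here. They set how many weak peaks are listed and how wide they are. No read totals were used, so no depth correction, interval or test could be made.

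Starts were counted from 1. Scores served only to rank peaks within a list. Peaks of different lists overlapping by at least 1 bp were merged. Genes and starts came from RefSeq tables on GRCm38 patch 6, and all 10 genes had a listed start. Start peaks lay within 1 kb of a listed start; related genes without one were read at either gene end. Of the related genes and markers, those whose start peak differed between lists were named. Of the marker lists, 1 gene is not reported here. The members and lists were chosen with earlier results of these data known. Motifs, CpG classes, let-7 loci, the upstream stretch of Myb, the genes listed beside Nfix, equal-length counts per gene and 2 alternatives were chosen after seeing the data. Motifs were searched on both strands in the 250 bases before each listed start. Regions away from gene starts are those over 1 kb from any listed start. Overlap code was tested on simulated data. Python 3.11.15, numpy 2.4.6, pandas 2.3.3 and matplotlib 3.10.9 were used.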

Additional observations from a re-analysis of the deposited data

How the results depend on the processing

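Recomputing the results under 11 alternatives gave 70 values, of which 56 stayed within 1.5 times the reported count. Using the upper 50% of each list by score left 8, 11 and 10 window peaks under DMSO, AZD2014 and rapamycin, 3 regions added and 0 absent under AZD2014, and 2 added and 0 absent under rapamycin. Equal list lengths gave 9 regions added and 8 absent under AZD2014. The gene body alone gave 14 rapamycin peaks and 10 regions added under AZD2014, and 50 kb on either side gave 35 rapamycin peaks and 21 regions in all 3 lists. Adding the outer 5′ end of each gene record, an alternative chosen after seeing the data, gave 8 genes with a start peak under AZD2014. The smaller window and shorter lists hold fewer peaks by construction.

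No paired analysis was possible because there is 1 library per condition. No replicate was left out for the same reason. Unknown depth limits every absence reported here.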

Other observations

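The stretch of 135 kb between the start of Myb and the neighbouring gene Hbs1l, outside the windows used above, held 3 DMSO peaks, 3 AZD2014 peaks and 5 rapamycin peaks. Peaks 60.6, 67.6 and 108 kb upstream of the Myb start under DMSO ranked at 63.1%, 59.0% and 82.9% of that list. Overlapping peaks ranked at 48.8%, 55.6% and 62.0% under AZD2014 and at 37.9%, 78.9% and 67.4% under rapamycin. The rapamycin list alone had peaks 35.8 kb (rank 87.2%) and 91.3 kb (rank 74.4%) upstream. This stretch was chosen after seeing the data, and with 1 library per condition no difference was tested.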
